A study of Mus musculus with 6 samples.

Results

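The 9 genes followed here are microglia-enriched, and were measured in the hippocampus of CORT-treated mice: the receptors Cx3cr1, P2ry12, Gpr34, Adora3, Trem2, Siglech, Fcrls and Lag3, and the complement gene C1qb. They were picked by gene name as receptors and complement typical of resting microglia, with earlier results of these data known. All 9 are among the 2404 genes listed in the deposited table. Male C57BL/6 mice aged 7 to 8 weeks received corticosterone (CORT, the main stress hormone of rodents) at 40 mg/kg, or vehicle containing DMSO and Tween-80, by a daily injection under the skin for 36 days. The hippocampi of 3 CORT mice and 3 vehicle mice were sequenced, with the treatment of the CORT samples labelled as cortisone. Values are TPM, a measure of transcript abundance that scales each gene for its length and for the library total, so that levels of different genes can be set side by side.

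Microglia are the resident macrophages of the brain. At rest they survey neurons through fine processes, and a set of surface receptors made at this stage reads signals from the surroundings: fractalkine from neurons (Cx3cr1), ADP from injured cells (P2ry12), adenosine (Adora3), lysophosphatidylserine (Gpr34) and lipids or lipoproteins (Trem2). Such genes are often called homeostatic, since microglia lower many of them when they take up an activated state, and glucocorticoids act on microglia through the glucocorticoid receptor.

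Only genes that differed between the groups in the authors' own test are listed in the table, so their low p-values cannot count as separate support, and genes outside it were not analysed here. The listed genes held 30.1% to 31.5% of all TPM in the CORT libraries and 29.2% to 29.9% in the vehicle libraries. TPM keep no read number, so the depth is unknown. Fkbp5, a textbook target of the glucocorticoid receptor, averaged 121 ± 6.19 TPM in CORT libraries and 46.2 ± 2.34 TPM in vehicle libraries (SD, n = 3 each). The groups were compared by limma on log2(TPM + 1) over the 2241 genes that reached 1 TPM in 3 or more libraries, with Benjamini-Hochberg adjustment across them. Every log2 fold change carries the added 1 TPM, so that changes of weakly expressed genes appear smaller than they were.

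The promoters of 3 of these genes are shown: Fcrls fell with a wide gap between the groups, Siglech was the one that rose, and P2ry12, which fell, holds the same marked letters as Siglech. Each line is RefSeq sequence of mouse build GRCm38.p6 from 250 bases before to 50 bases after the transcription start, written 5′ to 3′ along the gene. Fcrls is at chr3:87263475-87263774 on the minus strand, P2ry12 at chr3:59262936-59263235 on the minus strand and Siglech at chr7:55767934-55768233 on the plus strand. Capitals mark, on either strand, the letters GGAAGT (the core bound by ETS factors such as the microglial factor PU.1), AGAACA (a half-site of the glucocorticoid receptor) and CACGTG (an E-box).
Fcrls: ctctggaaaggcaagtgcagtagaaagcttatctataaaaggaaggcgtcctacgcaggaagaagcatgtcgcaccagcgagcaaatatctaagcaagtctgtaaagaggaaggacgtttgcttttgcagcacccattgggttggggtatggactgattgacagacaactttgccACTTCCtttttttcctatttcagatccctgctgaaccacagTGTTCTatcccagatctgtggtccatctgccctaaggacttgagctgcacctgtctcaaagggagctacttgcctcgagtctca
P2ry12: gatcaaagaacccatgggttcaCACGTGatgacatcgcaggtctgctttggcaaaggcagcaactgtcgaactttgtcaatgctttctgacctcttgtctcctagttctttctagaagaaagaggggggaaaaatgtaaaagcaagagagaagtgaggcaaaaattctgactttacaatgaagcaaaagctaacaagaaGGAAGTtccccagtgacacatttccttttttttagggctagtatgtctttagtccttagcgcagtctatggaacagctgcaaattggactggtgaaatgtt
Siglech: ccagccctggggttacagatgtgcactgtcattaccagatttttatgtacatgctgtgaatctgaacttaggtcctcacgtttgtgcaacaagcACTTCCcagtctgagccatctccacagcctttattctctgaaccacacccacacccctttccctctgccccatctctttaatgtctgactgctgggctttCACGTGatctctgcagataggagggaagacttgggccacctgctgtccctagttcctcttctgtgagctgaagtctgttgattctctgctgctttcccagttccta
P2ry12 and Siglech thus carried GGAAGT and CACGTG at different distances from the start. Of the 7 genes with a promoter entry (all but Gpr34 and Lag3), 5 held GGAAGT (Adora3, C1qb, Fcrls, P2ry12 and Siglech), against 23.8% of all 32851 promoters of this length. The longer PU.1 letters GAGGAAGT were found in 1 of the 7, Adora3, against 3.20% of all promoters, and overlap GGAAGT there. AGAACA was found in C1qb and Fcrls (19.0% of all promoters) and CACGTG in P2ry12 and Siglech (7.15%). The full palindromic glucocorticoid receptor site was in 0 of the 7 windows, and in 0.475% of all promoters. The AP-1 letters TGANTCA were found in Adora3 and Trem2 (7.81% of all promoters), and the MEF2 site in Cx3cr1 (3.69%). All were searched on both strands. These matches are descriptions of the letters in a short window.

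Most of the homeostatic genes fell. At an adjusted p under 0.05 from limma, 6 of the 8 genes tested were lower in the CORT group (Fcrls, Cx3cr1, Gpr34, Lag3, P2ry12 and Trem2), 1 was higher (Siglech) and 1 did not pass (C1qb), while Adora3 was too low to be tested. Over all genes tested, 24.7% were lower and 25.8% higher, 50.6% in all. The median log2 fold change was -0.98 over the 8 genes tested and 0.05 over all genes tested. Since the genes were chosen with earlier results of these data known, this contrast is a description. In 7 of the 8 the CORT and vehicle libraries did not overlap, as was the case for 69.8% of all genes tested, and in 6 of them all CORT libraries were the lower ones (34.4% of all genes tested). In bulk tissue, fewer microglia and less RNA of a gene per microglial cell cannot be told apart.

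**Figure D1:**
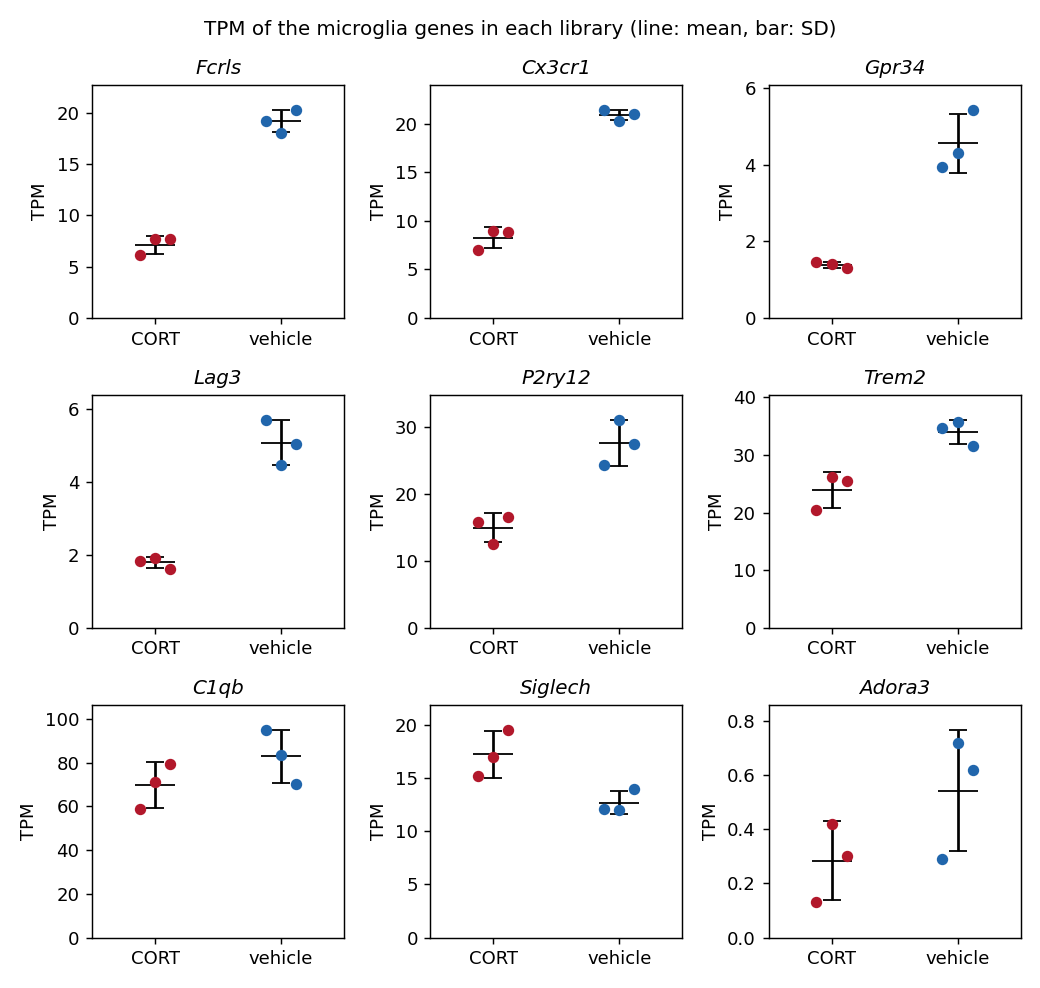
TPM (y axis, from 0) of each of the 9 genes in the 3 CORT libraries (red, left) and the 3 vehicle libraries (blue, right), with the mean as a line and the SD as a bar. The CORT points lie below all vehicle points for Fcrls, Cx3cr1, Gpr34, Lag3, P2ry12 and Trem2, above them for Siglech, and overlap them for C1qb and Adora3.

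Cx3cr1 (ENSMUSG00000052336), on chromosome 9, is the receptor through which microglia sense fractalkine. It had 7.02, 8.99 and 8.84 TPM in the CORT libraries, against 21.4, 20.32 and 20.99 TPM in the vehicle libraries. Even the lowest vehicle library was 2.26 times the highest CORT library. The mean was 8.28 ± 1.10 TPM in CORT and 20.9 ± 0.545 TPM in vehicle (SD, n = 3 each), so that 39.6% of the vehicle level was left (log2 fold change -1.25, SE 0.11, adjusted p = 0.000107 from limma). Its ligand gene Cx3cl1, which neurons express, was lower as well, at 427 ± 6.75 TPM in CORT libraries and 493 ± 25.4 TPM in vehicle libraries (SD, n = 3 each). This fall (log2 fold change -0.21, SE 0.05, adjusted p = 0.0143 from limma) was lost with quantile normalization (0.142, and 0.0109 to 0.142 over all alternatives). The annotated span of Cx3cr1 overlaps several other genes. Of these, Csrnp1 on the same strand was higher in CORT, with 11.96, 20.19 and 11.06 TPM against 7.74, 6.68 and 9.41 TPM in vehicle (log2 fold change 0.75, adjusted p = 0.025 from limma, and up to 0.0693 without vehicle replicate 1). The antisense transcript Gm33858 was at or below 0.06 TPM in CORT libraries and at 0.12 to 0.54 TPM in vehicle libraries, too low to be tested. Reads were aligned in what the methods call orientation mode, and whether the counting used strand is not given in the sources used here, so reads of opposite-strand partners may not be told apart.

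P2ry12 (ENSMUSG00000036353), on chromosome 3, is the ADP receptor that steers microglial processes towards damage. Its level was 15.81, 12.45 and 16.58 TPM in the CORT libraries, against 24.2, 31.01 and 27.36 TPM in the vehicle libraries. All CORT values were below all vehicle values, and CORT replicate 2 was the lowest. The fall left 54.3% of the vehicle mean (log2 fold change -0.84, SE 0.13, adjusted p = 0.00164 from limma). Med12l, on the opposite strand, spans P2ry12 and was not analysed here. P2ry13, a related ADP receptor of microglia, had 2.29, 3.62 and 4.28 TPM in the CORT libraries, against 6.81, 8.48 and 6.3 TPM in the vehicle libraries. It fell as well (log2 fold change -0.92, SE 0.18, adjusted p = 0.00617 from limma).

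Gpr34 (ENSMUSG00000040229) lies on chromosome X and encodes a receptor for lysophosphatidylserine. It had 1.46, 1.41 and 1.3 TPM in the CORT libraries, against 3.96, 4.31 and 5.44 TPM in the vehicle libraries. The CORT values were nearly alike, and their mean was 30.4% of the vehicle mean, the smallest share among the 9 genes. The fall (log2 fold change -1.21, SE 0.14, adjusted p = 0.000442 from limma) is damped by the added 1 TPM, and it was -1.64 with a pseudocount of 0.1. Cask, which spans Gpr34 on the opposite strand, was not analysed here.

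Adora3 (ENSMUSG00000000562), the adenosine A3 receptor gene on chromosome 3, was close to the lower limit of the measurement. It had 0.13, 0.42 and 0.3 TPM in the CORT libraries, against 0.29, 0.72 and 0.62 TPM in the vehicle libraries. The groups overlapped, and no library reached 1 TPM. Without a filter on low values it did not pass (log2 fold change -0.26, SE 0.16, adjusted p = 0.155 from limma). Its longest transcript also shared 672 bases at 100% identity with Tmigd3, an overlapping gene on the same strand, so its level is uncertain. Among the genes that handle adenosine, Ada, the deaminase that breaks it down, had 4.76, 4.83 and 4.71 TPM in the CORT libraries, against 0.61, 0.73 and 0.93 TPM in the vehicle libraries (log2 fold change 1.72). Ada passed the filter on low values only through the CORT libraries, so no p is given for it. Adenosine kinase (Adk) did not pass (log2 fold change -0.12, adjusted p = 0.174 from limma, and 0.0157 after removal of a GC trend). Of 19 genes of purine and adenosine signalling, these 2 and P2ry13 were in the table.

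Fcrls (ENSMUSG00000015852), an Fc receptor-like scavenger receptor that marks mouse microglia, is on chromosome 3. It had 6.13, 7.66 and 7.65 TPM in the CORT libraries, against 19.17, 18.06 and 20.26 TPM in the vehicle libraries. The gap between the groups was wide: the lowest vehicle library was 2.36 times the highest CORT library. Fcrls had the most negative log2 fold change of the 8 genes tested at a pseudocount of 1 (-1.31, SE 0.11, adjusted p = 0.000103 from limma), and 37.3% of its vehicle mean was left. Gpr34 was lower than Fcrls at a pseudocount of 0.5 (-1.41 against -1.37) or 0.1 (-1.64 against -1.42), after removal of a GC trend (-1.45 against -1.41) and without CORT replicate 1 (-1.23 against -1.22). Lag3 was also lower than Fcrls at a pseudocount of 0.1 (-1.45 against -1.42).

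Lag3 (ENSMUSG00000030124), on chromosome 6, is an inhibitory receptor for MHC class II that is best known from T cells. It had 1.84, 1.92 and 1.62 TPM in the CORT libraries, against 5.71, 4.47 and 5.05 TPM in the vehicle libraries. All CORT libraries were below 2 TPM, and 35.3% of the vehicle mean was left (log2 fold change -1.12, SE 0.13, adjusted p = 0.000446 from limma). In order of log2 fold change at a pseudocount of 1, Fcrls, Cx3cr1, Gpr34 and Lag3 stood at places 6, 7, 10 and 12 from the lowest of all 2241 genes tested.

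Trem2 (ENSMUSG00000023992), on chromosome 17, encodes a lipid-sensing receptor that signals through the adaptor Tyrobp. It had 20.39, 26.11 and 25.46 TPM in the CORT libraries, against 34.74, 35.66 and 31.6 TPM in the vehicle libraries. The groups did not overlap, with CORT replicate 1 the lowest. Its log2 fold change was the least negative among the 6 lower genes: 70.5% of the vehicle mean was left (log2 fold change -0.49, SE 0.10, adjusted p = 0.00768 from limma). Of 18 other genes of TREM2 signalling, 5 were in the table, and 1 was called higher and 1 lower. Over all genes tested, 25.8% were higher and 24.7% lower. Ms4a6b, of the MS4A family, had 2.7, 2.33 and 4.75 TPM in CORT libraries, against 0.51, 0.9 and 0.72 TPM in vehicle libraries (log2 fold change 1.28), and is the 1 counted as higher. It passed the filter only through the CORT libraries, so no p is given. Apoe, a lipoprotein that TREM2 binds and that astrocytes make in bulk, averaged 4694 ± 202 TPM in CORT and 5592 ± 219 TPM in vehicle (SD, n = 3 each). Its log2 fold change of -0.25 passed (adjusted p = 0.00542 from limma) but not after removal of a GC trend (0.0777, and 0.000528 to 0.0777 over all alternatives). Clu and Inpp5d had log2 fold changes of -0.14 and -0.09 that did not pass (adjusted p = 0.0861 and 0.765 from limma). Pik3ap1 was at 0.43 to 0.93 TPM in CORT and 1.05 to 1.21 TPM in vehicle libraries (log2 fold change -0.34). It passed the filter only through the vehicle libraries, so no p is given.

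Siglech (ENSMUSG00000051504) went the other way. It encodes a sialic acid-binding lectin of mouse microglia and plasmacytoid dendritic cells that, like Trem2, signals through Tyrobp, and it lies on chromosome 7. It had 15.19, 16.96 and 19.56 TPM in the CORT libraries, against 12.12, 12 and 13.97 TPM in the vehicle libraries. The lowest CORT library exceeded the highest vehicle library. The mean was 17.2 ± 2.20 TPM in CORT and 12.7 ± 1.10 TPM in vehicle (SD, n = 3 each), and the rise passed (log2 fold change 0.41, SE 0.11, adjusted p = 0.0199 from limma). The rise did not pass without vehicle replicate 1 (0.0575), without vehicle replicate 2 (0.0527), without CORT replicate 3 (0.0626) or after removal of a GC trend (0.0752), and its adjusted p ranged from 0.0184 to 0.0752 over the alternatives. Of 27 other genes of inhibitory, Fc and Siglec-type receptors of myeloid cells, with some ligands and other partners counted among them, 5 were in the table. Sirpa, which receives the CD47 signal and is also expressed by neurons, fell by 0.21 on the log2 scale (adjusted p = 0.0166 from limma), Fcgr3 rose, Fcgr1 and Lair1 did not pass, and Cd300lf, at 0.28 to 0.54 TPM in CORT libraries and 0 to 0.08 TPM in vehicle libraries, was too low to be tested.

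C1qb (ENSMUSG00000036905), a chain of the C1q complex that starts the classical complement pathway, was the most abundant of the 9 genes and lies on chromosome 4. It had 58.72, 71.25 and 79.24 TPM in the CORT libraries, against 94.78, 83.44 and 70.4 TPM in the vehicle libraries. The groups overlapped, since the highest CORT library exceeded the lowest vehicle library. C1qb did not pass (log2 fold change -0.25, SE 0.13, adjusted p = 0.116 from limma). A call was reached only without vehicle replicate 3 (0.0493, and 0.0493 to 0.356 over all alternatives). Of 27 other genes of complement, its receptors and regulators, with C1q-like genes counted among them, 5 were in the table. Itgam, a chain of complement receptor 3 that microglia carry, had 4.8, 4.9 and 4.7 TPM in the CORT libraries, against 6.74, 6.44 and 7.2 TPM in the vehicle libraries, and fell by 0.43 on the log2 scale (SE 0.10, adjusted p = 0.0123 from limma). Cd59a, which shields cells from the membrane attack complex, rose (log2 fold change 0.92, SE 0.16, adjusted p = 0.0028 from limma). C1ql2, a C1q-like synaptic protein of granule cells, fell by 0.38 (adjusted p = 0.0077 from limma, and 0.141 after removal of a GC trend), while its relative C1ql3 and the regulator Cr1l had log2 fold changes of 0.17 and -0.10 that did not pass.

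**Figure D2:**
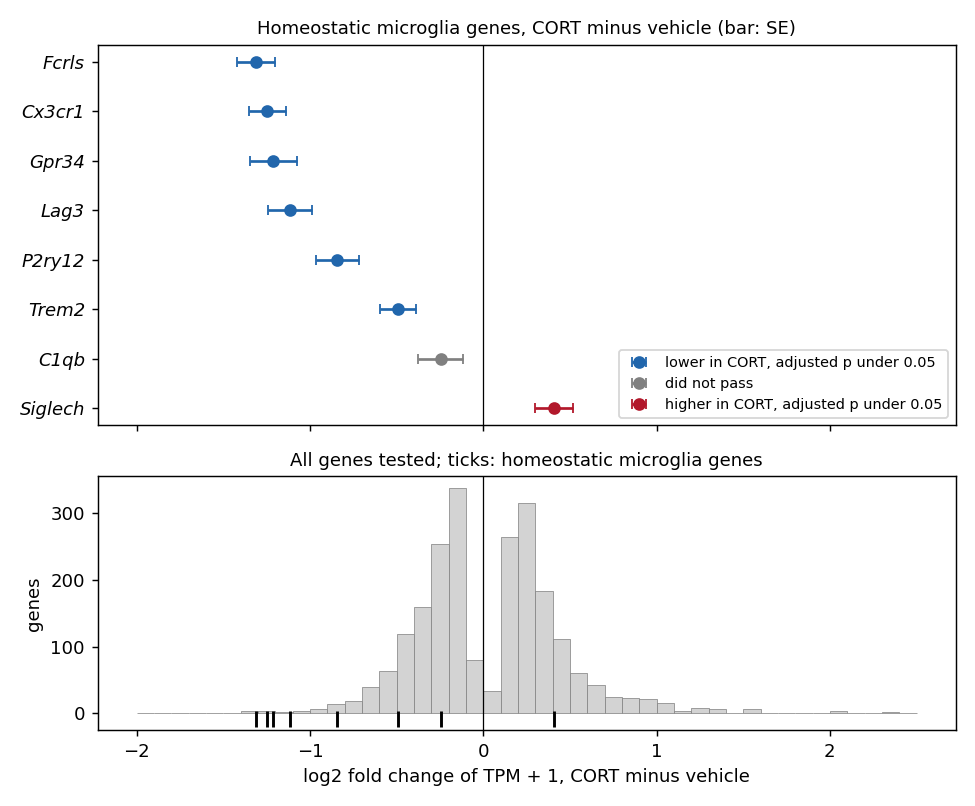
Top, log2 fold change of TPM + 1 (x axis, CORT minus vehicle) of the 8 genes tested, with the SE as a bar and the colour giving the limma call. Bottom, a histogram of the same fold change over all 2241 genes tested, with ticks for the 8 genes; the values run between -1.31 for Fcrls and 0.41 for Siglech.

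The size of the change was compared between genes. The difference of each pair of genes on the log2(TPM + 1) scale was taken in each library. Of the 28 pairs of tested genes, 16 had no overlap between CORT and vehicle libraries, a share near that over all pairs of genes tested (57.8%). Of the 15 pairs among the 6 lower genes, 5 had no overlap. An exact two-sided permutation test of 3 libraries against 3 has 20 arrangements and cannot give a p below 0.1, so no pair could pass, and the pairs are a description. Of the 6 pairs among Fcrls, Cx3cr1, Gpr34 and Lag3, Cx3cr1 over Fcrls alone had no overlap, with a difference between groups of 0.07. Cx3cr1 over Trem2 was -1.42, -1.44 and -1.43 in the CORT libraries, against -0.67, -0.78 and -0.57 in the vehicle libraries. Trem2 over C1qb overlapped between the groups (-1.48, -1.41 and -1.60 in CORT, against -1.42, -1.20 and -1.13 in vehicle). All 7 pairs with Siglech had no overlap. For its pairs with the 6 lower genes this was fixed by the single genes, since Siglech was higher and they were lower in every CORT library. The widest was Siglech over Fcrls, at 1.18, 1.05 and 1.25 in CORT libraries, against -0.62, -0.55 and -0.51 in vehicle libraries.

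The order of the levels changed with it. In CORT libraries the mean TPM ran C1qb (69.7), Trem2 (24.0), Siglech (17.2), P2ry12 (14.9), Cx3cr1 (8.28), Fcrls (7.15), Lag3 (1.79), Gpr34 (1.39) and Adora3 (0.283). In vehicle libraries it ran C1qb (82.9), Trem2 (34.0), P2ry12 (27.5), Cx3cr1 (20.9), Fcrls (19.2), Siglech (12.7), Lag3 (5.08), Gpr34 (4.57) and Adora3 (0.543). Siglech was thus the third gene in CORT and the sixth in vehicle. In CORT the libraries overlapped for the neighbours Siglech and P2ry12 and for Cx3cr1 and Fcrls, and in vehicle for Lag3 and Gpr34, so those places are not set apart by the spread.

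Library by library, the summed TPM of the 9 genes was 127, 147 and 161 in the CORT libraries, against 216, 210 and 196 in the vehicle libraries, with C1qb giving the largest part. CORT replicate 1 was the lowest CORT library for 6 of the 9 genes (Cx3cr1, Trem2, Siglech, C1qb, Fcrls and Adora3), P2ry12 was lowest in replicate 2, and Gpr34 and Lag3 in replicate 3. Among the vehicle libraries the lowest place was spread over replicate 1 (3 genes), 2 (4 genes) and 3 (2 genes). The calls of the 6 lower genes held in each fit that left out 1 library, those without CORT replicate 1 included.

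Other microglial genes were called in both directions. Of 61 further genes known from microglia, 23 were in the table and 20 were tested: 10 were lower, 5 were higher and 5 did not pass, with a median log2 fold change of -0.34, where 24.7% of all genes tested were lower and 25.8% higher. The 5 of 20 that were higher are thus a share near that over all genes. They include Tlr7, which passed the filter on low values only through the CORT libraries, so its call is no separate support. After P2ry13, the largest falls were those of Ecscr (-0.70), also an endothelial gene, and of Irf8 (-0.67), a transcription factor of the macrophage lineage. Irf8 had 1.91, 1.46 and 2.06 TPM in CORT libraries, against 3.52, 3.45 and 3.38 TPM in vehicle libraries (adjusted p = 0.00534 from limma). Sall1, the transcription factor that sets microglial identity, had 4.77, 4.27 and 4.05 TPM in CORT libraries, against 6.24, 5.64 and 8.07 TPM in vehicle libraries (log2 fold change -0.50, adjusted p = 0.0199 from limma, and 0.0537 without CORT replicate 3). The fructose transporter Slc2a5 and the ribonuclease Rnase4 fell by 0.58 and 0.56, and Cyth4 and Unc93b1 by 0.40 and 0.36 on the log2 scale. Cst3, a protease inhibitor that astrocytes also make, was lower at 2272 ± 176 TPM in CORT and 3157 ± 191 TPM in vehicle (SD, n = 3 each). It sets the summed level of the list, which without it was 299 to 305 TPM in CORT libraries and 296 to 335 TPM in vehicle libraries.

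The 5 counted as higher were Tlr7, Fcgr3, Mertk, Havcr2 and Selplg. Tlr7, a sensor of single-stranded RNA, had 1.78, 1.69 and 1.7 TPM in CORT libraries, against 0.71, 0.52 and 0.55 TPM in vehicle libraries (log2 fold change 0.78). It passed the filter on low values only through the CORT libraries, so that no p is given, and it was not tested when a CORT library was left out. Fcgr3, a low-affinity IgG receptor, rose by 0.51 with overlapping groups, at 19.64, 24.5 and 27.16 TPM in CORT libraries, against 20.98, 14.11 and 14.55 TPM in vehicle libraries. The phagocytosis receptor Mertk rose by 0.33, the checkpoint receptor Havcr2 by 0.43 and the P-selectin ligand Selplg by 0.27. The calls of Fcgr3, Mertk, Havcr2 and Selplg depended on single libraries. Without CORT replicate 1 only Fcgr3 of these 4 passed, without CORT replicate 2 or 3 only Mertk, without vehicle replicate 2 only Havcr2, without vehicle replicate 3 only Mertk, without vehicle replicate 1 all but Havcr2, and after removal of a GC trend 0 of them. The adjusted p from limma reached 0.0901 for Fcgr3, 0.0683 for Mertk, 0.223 for Havcr2 and 0.0984 for Selplg. The number lower was 7 to 11 over the alternatives, and Cyth4, Unc93b1 and Slc2a5 lost their calls in single fits (up to 0.0644 without vehicle replicate 1, 0.0681 without CORT replicate 2 and 0.0589 without CORT replicate 3). Lgmn, Golm1, Ikzf1, Nckap1l and Inpp5d did not pass.

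**Figure D3:**
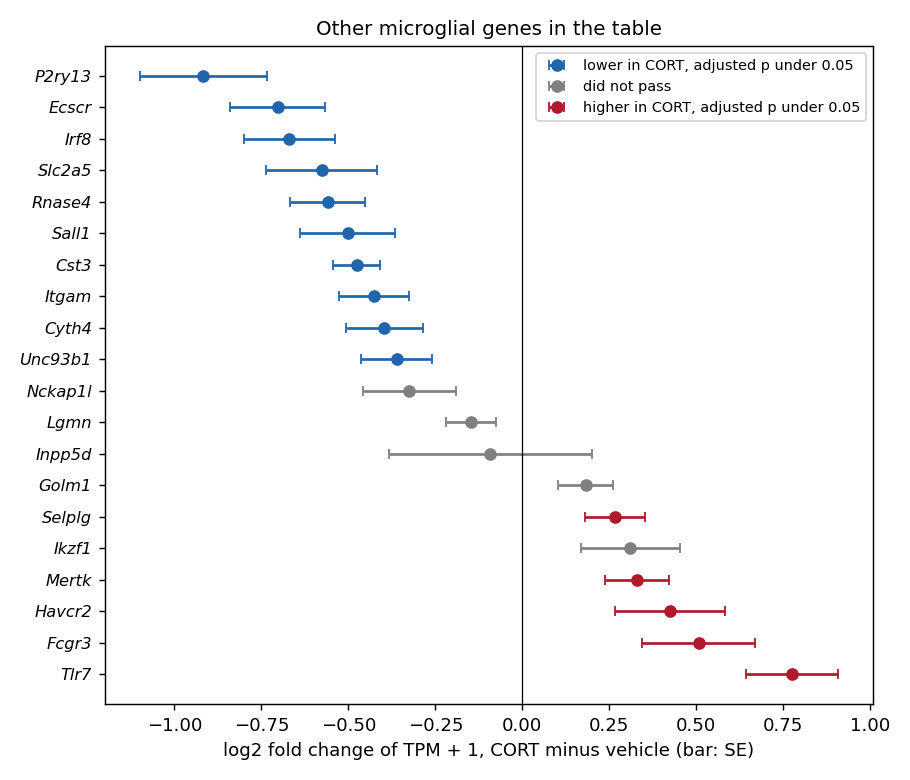
Log2 fold change of TPM + 1 (x axis, CORT minus vehicle, bar: SE) of the 20 other microglial genes tested, ordered from the lowest to the highest, with the colour giving the limma call. P2ry13 is at the low end (-0.92) and Tlr7 at the high end (0.78), and 10 genes are lower and 5 higher. The 5 include Tlr7, which passed the filter on low values only through the CORT libraries.

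Signals that maintain the homeostatic state were also covered. Of 18 genes of fractalkine, CSF1 receptor and TGF-beta signalling, 4 were in the table, and 3 were lower, where 24.7% of all genes tested were lower. Tgfb1, the cytokine that microglia need to keep this state, had 3.21, 3.72 and 4.23 TPM in the CORT libraries, against 6.87, 5.44 and 6.87 TPM in the vehicle libraries. All CORT values lay below all vehicle values (log2 fold change -0.65, SE 0.13, adjusted p = 0.00685 from limma). Smad3, which carries the TGF-beta signal to the nucleus, fell by 0.20 (adjusted p = 0.0481 from limma, and 0.149 without CORT replicate 2). Smad3 also lost its call without each other library except vehicle replicate 3. Il34, a neuronal ligand of the CSF1 receptor, did not pass (log2 fold change -0.22, adjusted p = 0.0559 from limma), but passed with median-of-ratios scaling and without vehicle replicate 2 (0.0308 to 0.141 over all alternatives). Of 32 genes of activated microglia, only Itgad and Cd86 were in the table. Itgad, an integrin chain of macrophages, had 3.4, 3.04 and 1.87 TPM in the CORT libraries, against 0.51, 0.14 and 0.14 TPM in the vehicle libraries (log2 fold change 1.57). It too passed the filter only through the CORT libraries, so no p is given. The costimulatory gene Cd86 did not pass (0.18, adjusted p = 0.466 from limma).

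Genes of other cell types moved too, and the part of a change in tissue composition in the results above was not tested. Beside the counts that follow, 24.7% of all genes tested were lower and 25.8% higher. Of 15 endothelial markers, 9 were in the table, 5 were lower and 2 higher, with a summed level of 294 to 300 TPM in CORT libraries and 254 to 287 TPM in vehicle libraries. Among these, Cldn5 fell by 1.41 on the log2 scale, whereas Slc2a1 and Mfsd2a rose by log2 fold changes of 0.87 and 0.55. Slc2a1 alone averaged 135 TPM in CORT and 73.7 TPM in vehicle libraries, and this gene sets the direction of the sum. Of 15 astrocyte markers, 8 were in the table and 5 were lower, with a sum of 2023 to 2055 TPM in CORT libraries and 2243 to 2397 TPM in vehicle libraries. Of 15 oligodendrocyte markers, 5 were in the table, 2 were lower and 1 was higher, with a sum of 682 to 950 TPM in CORT libraries and 547 to 746 TPM in vehicle libraries. Mobp, the 1 higher gene, averaged 798 TPM in CORT and 559 TPM in vehicle libraries and likewise sets this sum. Its groups overlapped, at 883.38, 884.5 and 627.52 TPM in CORT libraries, against 552.12, 478.46 and 647.66 TPM in vehicle libraries. The call of Mobp was lost in 4 of 14 alternatives (adjusted p up to 0.133 from limma, without CORT replicate 1). Of 10 pericyte markers, 4 were in the table, 1 was lower and 1 higher, with a sum of 93.2 to 98.0 TPM in CORT libraries and 103 to 118 TPM in vehicle libraries. Some calls in these lists were not stable. Rgs5, the higher pericyte marker, lost its call in 6 of 14 alternatives (adjusted p up to 0.476 from limma, after removal of a GC trend). Aldoc of astrocytes, Gjc3 of oligodendrocytes and Slco1a4 of endothelium each lost theirs in 5. Those of Cldn5, Slc2a1, Mfsd2a, Sox9, Sox10 and Vtn held in all. The single oligodendrocyte precursor marker of 9 in the table, Cspg4, which is also on the pericyte list, did not pass. No marker in the table was at 0 in every library. None of 11 markers of border macrophages and none of 15 of neurons was in the table, so neither was analysed here. Of 19 blood cell markers only Ighm, the heavy chain of IgM, was in the table, at 43.27, 46.21 and 33.62 TPM in CORT libraries, against 16.09, 12.53 and 9.69 TPM in vehicle libraries. Common microglial markers such as Tmem119, Csf1r and Aif1 were not analysed here.

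**Figure D4:**
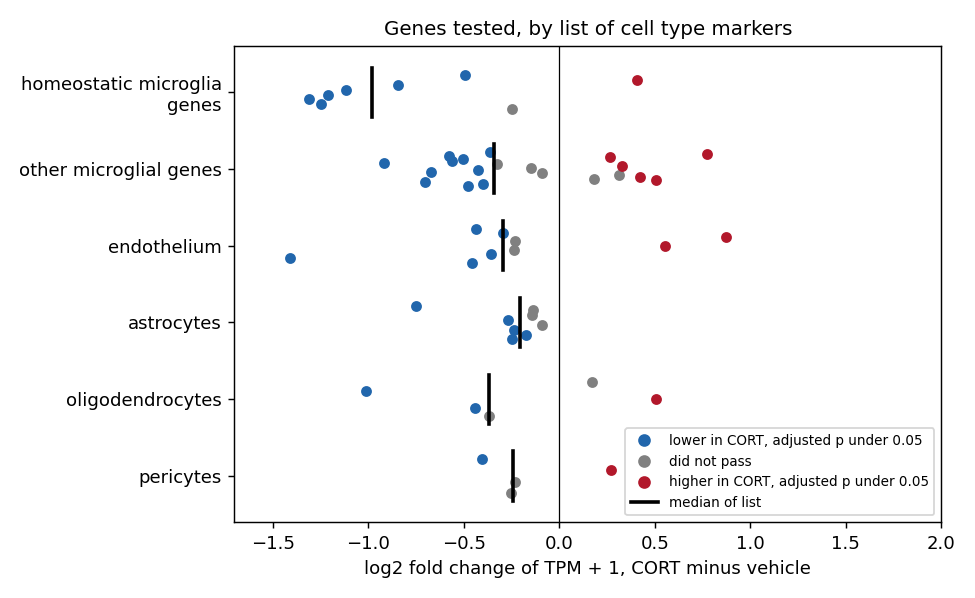
Log2 fold change of TPM + 1 (x axis, CORT minus vehicle) of every gene tested in 6 lists, with 1 point per gene, the colour giving the limma call and the black line the median of the list. The median is -0.98 for the homeostatic microglia genes and -0.34 for the other microglial genes, and single endothelial and oligodendrocyte genes reach -1.41 and -1.01.

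Base composition differed along the falling genes as well. The GC content of the longest annotated transcript was 37.1% for Gpr34, 38.6% for P2ry12, 48.5% for Fcrls, 50.3% for Cx3cr1, 51.0% for Trem2, 59.9% for Lag3, 57.4% for C1qb and 45.5% for Siglech. Over all genes tested, the median was 55.3% for those called lower and 49.3% for those called higher. Of the 6 lower genes, Lag3 alone lay above the median of genes called lower. Each of the 6 stayed lower when a GC trend was removed from each library, with 21.7% of all genes tested then lower. The part of base composition in these falls was not tested.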

How the data were processed

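Hippocampal RNA of 3 CORT and 3 vehicle mice was sequenced as paired-end TruSeq libraries. The authors trimmed reads with fastp. Build GRCm39 and the tools HISAT2, StringTie and RSEM, without versions, come from the submitters' processing notes. The authors deposited TPM for each library, together with their own fold changes and p-values, which were not used. The columns named WT were taken as vehicle, the only other group of the series, and replicate numbers are those of the columns, which are not tied to single samples. The replicates are called biological, and the p-values set the difference between groups against the spread between replicates, moderated across the genes tested.

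The log2(TPM + 1) values of the 2241 genes that reached 1 TPM in 3 or more libraries were fitted with limma 3.58.1 under R 4.3.3, moderating variances with a mean trend and robustly. Benjamini-Hochberg adjustment ran over these genes, with 0.05 as the threshold. The step was tested on simulated data. Members and lists were chosen with earlier results of these data known. The text names all 9 genes, any listed gene of microglial or pathway lists, up to 5 markers per other cell type, and the 5 genes with the nearest profile. Csrnp1, Gm33858 and Tmigd3 were named after the overlap was seen. Transcript GC content and gene overlaps came from GENCODE M21 (GRCm38, an earlier build, so no gene coordinates are given), with a GC value for 99.9% of listed genes. The GC trend was a spline with 4 degrees of freedom per library. Transcript matches were searched with BLAST 2.17.0 at 90% identity or more. Python 3.11.15, pandas 2.3.3, numpy 2.4.6, scipy 1.17.1 and matplotlib 3.10.9 were used. Alternatives were other pseudocounts, filters, scaling and moderation, the GC trend, and leaving out each library.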

Additional observations from a re-analysis of the deposited data

How the results depend on the processing

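The number of the 8 tested genes lower in CORT was 6 in the alternatives run, except for 7 without vehicle replicate 3, where C1qb also passed, and 4 with a minimum of 5 TPM, which left Gpr34 and Lag3 untested. The adjusted p of the 6 lower genes did not exceed 0.0283 (Trem2) in any fit from limma. The 1 higher gene, Siglech, became 0 after removal of a GC trend, and 0 to 1 when single libraries were left out. The count of genes changed in the table, 1133, was 621 without vehicle replicate 1, 697 without CORT replicate 1, 631 without CORT replicate 2, 701 without CORT replicate 3, and up to 1210 without vehicle replicate 3. It was 1129 with quantile normalization, 1248 with median-of-ratios scaling and 895 after removal of a GC trend. Genes that had not passed changed sign in single fits. Log2 fold changes after removal of a GC trend were -0.00702 for Cd86 and -0.0618 for Ugt8a. With single libraries left out, they ran from -0.0259 (without vehicle replicate 2) to 0.308 for Cd86, from -0.0171 (without vehicle replicate 2) to 0.324 for Ugt8a, and from -0.359 to 0.175 for Inpp5d, which was positive without vehicle replicate 3 (0.104) or CORT replicate 2. Other listed genes that had not passed did so in single fits, among them C1ql3, Fcgr1 and Golm1 without vehicle replicate 3, Clu and Lair1 without vehicle replicate 2, Cr1l after removal of a GC trend, and Nckap1l and Lair1 with quantile normalization. The cause was not tested. No paired analysis was possible because the titles of the groups share only 1 replicate number, 3, and the columns are not tied to titles.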

Other observations

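Among genes of none of the lists, the 5 whose 6 centred log2(TPM + 1) values lay closest to the mean profile of the 8 tested microglia genes were Fam53b, Nr4a2, Mpeg1, Sox18 and Tprkb. Their root mean square distances were 0.0698, 0.0880, 0.0896, 0.0921 and 0.0928 log2 units over the 6 libraries. They were chosen for this profile, so their fall is a description with no test. Mpeg1, which encodes the pore-forming protein perforin-2 of macrophages, had 4.17, 4.41 and 3.81 TPM in CORT libraries, against 7.46, 7.57 and 7.78 TPM in vehicle libraries (log2 fold change -0.75). Nr4a2, a nuclear receptor expressed by neurons, had 32.41, 29.4 and 33.05 TPM in CORT libraries, against 51.21, 51.77 and 50.82 TPM in vehicle libraries. Sox18, a transcription factor of endothelium, had 10.17, 11.18 and 10.25 TPM in CORT libraries, against 17.45, 16.24 and 16.61 TPM in vehicle libraries. Nr4a2 and Sox18, known from other cell types, thus lay at distances from that mean similar to that of Mpeg1. Listed genes, microglial markers among them, were left out of this search. The mean profile also includes Siglech, which rose, and C1qb, which did not pass, so the distances cannot tell cell types apart. Gpr183, an oxysterol receptor on the microglial list, was too low to be tested, at 0.25, 0.17 and 0.24 TPM in CORT libraries, against 0.65, 0.57 and 0.78 TPM in vehicle libraries.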
